A study of Mus musculus with 12 samples.

Results

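Sulforaphane (SFN), an isothiocyanate from cruciferous vegetables, was added to B16F10 cells that were already receiving 5-aza-2'-deoxycytidine (decitabine, DAC), and the RNA of those cells was compared with that of cells given DAC alone. Of the 12 RNA-seq libraries of the study, 6 entered this comparison: DAC replicates 1 to 3 and DAC+SFN replicates 1 to 3. B16F10 is an established mouse melanoma cell line from the C57BL/6 strain, used here unmodified and in culture, so no stroma or immune cells were present by design. In the DAC group, cells received 25 nM DAC for 72 h with the medium and drug renewed at 24 h. In the DAC+SFN group, cells had DAC alone at 25 nM for the first 24 h, and SFN at 5 µM joined the renewed DAC for the last 48 h. Both groups therefore had DAC for the whole 72 h, had the medium changed at the same time and were harvested together, and SFN was the agent by which they differed. The other groups were control cells with DMSO, the solvent of DAC, and cells with SFN alone, 3 libraries each. SFN alone is labelled 5 nM for 48 h, a unit taken up with that comparison. The control and SFN libraries entered the fit and a single comparison at the end. The series describes 3 independent biological repeats, and samples with the same replicate number were treated as a pair.

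DAC is a cytidine analogue that is built into DNA and traps DNA methyltransferases, so that methylation is lost as cells divide. SFN reacts with cysteines of KEAP1, the adaptor that marks the transcription factor NRF2 for degradation. NRF2 then accumulates and binds antioxidant response elements near genes for NADPH-dependent reductases, glutathione synthesis, glutathione conjugation and the pentose phosphate pathway. SFN is also known as an electrophile that touches other stress pathways and, at higher doses, histone deacetylase activity.

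The 6 libraries held between 15880957 counts (DAC replicate 2) and 26056092 counts (DAC replicate 3), and the 10 most abundant genes took 6.03% to 6.68% of them. Over the 12 libraries 11638 of 24421 genes reached 1 CPM (a read count scaled to 1e+06 counts per library) in 3 or more libraries and were tested. The melanocyte lineage genes were abundant in all 6 libraries: Dct, which encodes the pigment enzyme dopachrome tautomerase, stood at 7347, 5526 and 6053 CPM with DAC and 7456, 5630.4 and 6127 CPM with DAC+SFN. Of the markers of other cell types, Ptprc, Cd3e, Adgre1 and Itgam had at most 3 counts in any of the 6 libraries, none of the 5 endothelial markers was tested, and the few others are described with the melanocyte genes.

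SFN raised more genes than it lowered in DAC-treated cells, and the 2 largest fitted rises were in Aldh3a1 and Gsta3, both enzymes that detoxify electrophiles. At an adjusted p under 0.05 (edgeR's quasi-likelihood test, Benjamini-Hochberg) and a change of more than 2-fold, 108 genes differed, which is 0.928% of the genes tested. Of these, 85 were higher with SFN (0.73% of genes tested) and 23 were lower (0.198%). With the adjusted p alone, 1111 genes were higher (9.55%) and 768 were lower (6.6%), and 838 of those higher and 653 of those lower had changed by less than 1.5-fold. The median fold was 2.45 over the 85 genes and 2.40 over the 23 genes, while the median log2FC over all genes was 0.00085. The plot of change against adjusted p shows the wider right arm.

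**Figure D1:**
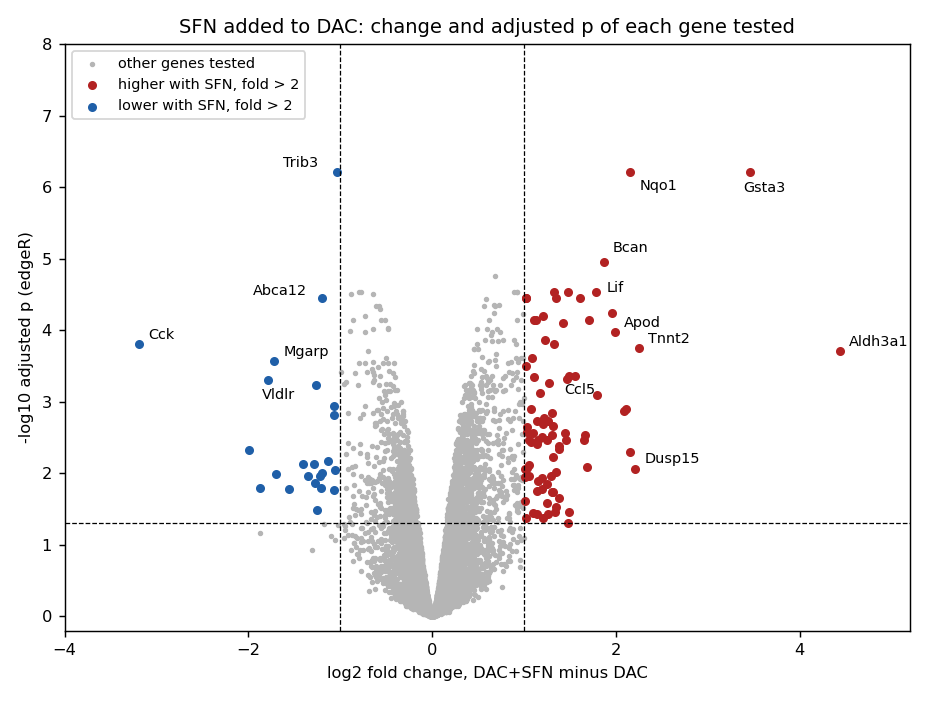
Each point is 1 of the 11638 genes tested, with the log2 fold change of DAC+SFN against DAC on the horizontal axis and -log10 of the adjusted p on the vertical axis. Dashed lines mark a 2-fold change and an adjusted p of 0.05, and the 85 red points (higher with SFN) reach further from 0 than the 23 blue points (lower), apart from Cck at -3.19.

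Of the 108 genes, 104 moved the same way in all 3 pairs (84 higher and 20 lower), against 41.4% of all genes. The 3 DAC+SFN values lay wholly outside the 3 DAC values for 65 of them (57 higher and 8 lower), against 18.2% of all genes. The pairing carried much of the calling: without the replicate number as a block, 9 genes passed, 8 of which were among the 108. Those 8 were Gsta3, Nqo1, Bcan, Apod, Tnnt2, Blvrb and Gclm, which were higher, and Trib3, which was lower. The 9th was Aox1 (aldehyde oxidase 1), which was just under 2-fold in the blocked fit at a log2FC of 0.99 ± 0.11 (SE, n = 3). When the 2-fold change was itself the null hypothesis (glmTreat), 6 genes passed: Gsta3, Nqo1, Bcan, Aldh3a1, Lif and Cck. Without DAC+SFN replicate 1 the count was 61, and without DAC+SFN replicate 3 it was 167. With all 4 samples of replicate 1 left out 37 genes passed, and with all of replicate 3 left out, 179.

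Gsta3 had the most significant rise together with Nqo1. Gsta3 (chromosome 1, 21240565 to 21265575 in mm10) encodes an alpha class glutathione S-transferase, which joins glutathione to electrophiles. Its values were 2.57, 1.6 and 1.39 CPM with DAC and 21.8, 27.6 and 15.2 CPM with DAC+SFN, a log2FC of 3.46 ± 0.22 (SE, n = 3 pairs) or 11-fold (adjusted p = 6.17e-07). Every DAC+SFN sample was therefore far above every DAC sample. Nqo1 (chromosome 8, 107388225 to 107403205) encodes the NAD(P)H quinone reductase that is the classical reporter of NRF2 activity. It stood at 10.6, 5.61 and 8.35 CPM with DAC and 38.6, 33.5 and 38.4 CPM with DAC+SFN, a log2FC of 2.16 ± 0.14 (adjusted p = 6.17e-07), and the groups again did not overlap.

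Aldh3a1 (chromosome 11, 61208510 to 61218418), which encodes an aldehyde dehydrogenase that oxidizes aromatic and lipid-derived aldehydes, had the largest fitted change of all genes. The DAC libraries held 1, 1 and 3 reads of it and the DAC+SFN libraries held 33, 8 and 58. The summed reads scaled to library size gave a ratio of 20.5 with an exact 95% interval of 8.49 to 64.5, which covers counting error only. The adjusted p was 0.000197, and the fitted log2FC of 4.44 ± 0.56 rests on those few DAC reads.

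Most NRF2 targets rose when SFN was added to DAC. All 30 listed targets were tested. Of them 21 rose and 1 fell at an adjusted p under 0.05, where 9.55% and 6.6% of all genes did, and their median log2FC was 0.42. Without the block 3 of the 30 rose, and without replicate 1 the number was 11. Over all 20 lists, members past the threshold without the block were these 3, 1 higher glutathione transferase and 4 lower genes of the ATF4 list. The median difference within pairs was 0.53, 0.61 and 0.19 in replicates 1, 2 and 3, so replicate 3 moved least.

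Promoter sequence is given here for members of these lists because the antioxidant response element is a short motif that can be looked for directly. The promoters were RefSeq entries (GRCm38.p6, the patch release of mm10), from 250 bases before to 50 after the start given for the entry. The core of the element was searched in them as TGACNNNGC on both strands. Such a match was held by 10 of the 24 NRF2 targets with a promoter in the table (41.7%), by 17.1% of the promoters of tested genes and by 14% of all 27025 promoters. Of the 55 genes that were higher by more than 2-fold and had a promoter, 15 held one (27.3%), and of the 14 that were lower, 2 did (14.3%). The stretches below are read 5' to 3' along the gene, with the 9 bases of the match in capitals. The match is on the opposite strand, and so reads as the reverse complement, in Gclm, Txnrd1, G6pdx and Prdx1.
Gclm (chr3:122245408-122245446, forward strand): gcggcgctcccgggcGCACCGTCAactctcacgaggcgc
Txnrd1 (chr10:82859099-82859137, forward strand): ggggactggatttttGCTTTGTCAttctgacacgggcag
G6pdx (chrX:74428914-74428952, reverse strand): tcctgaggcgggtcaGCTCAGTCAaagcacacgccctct
Prdx1 (chr4:116685451-116685489, forward strand): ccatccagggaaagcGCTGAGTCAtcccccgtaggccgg
Slc6a9 (chr4:117855487-117855525, forward strand): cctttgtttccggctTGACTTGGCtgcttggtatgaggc
Gsta3 (chr1:21240449-21240487, forward strand): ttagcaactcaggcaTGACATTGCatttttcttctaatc
Gstm7 (chr3:107931720-107931758, reverse strand): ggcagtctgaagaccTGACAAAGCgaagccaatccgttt
Gstm5 (chr3:107895797-107895835, forward strand): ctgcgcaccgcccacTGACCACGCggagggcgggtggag
The first 4 genes and Gsta3 and Gstm7 rose with SFN, whereas Slc6a9 and Gstm5 fell (-0.28 and -0.29 on the log2 scale, adjusted p = 0.0411 and 0.0412) with a match to the same motif in their promoters. The match lies 134 to 126 bases before the start of the promoter entry in Gclm and 121 to 113 bases before that start in Gsta3. The starts of these entries differ from the gene starts, which are 122245487 for Gclm and 21240565 for Gsta3. The matches are letters found in a window and were not tested for binding.

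Genes of glutathione synthesis and cystine uptake rose. Gclm, the modifier subunit of glutamate-cysteine ligase, stood at 71.3, 75 and 70.8 CPM with DAC and 161, 178 and 111 CPM with DAC+SFN (log2FC 1.02 ± 0.10, adjusted p = 3.59e-05). Gclc, the catalytic subunit of that enzyme, rose less, at 0.56 ± 0.06 (adjusted p = 4.65e-05). Slc7a11, the cystine importer that feeds the pathway, stood at 135, 89.6 and 112 CPM with DAC and 235, 258 and 186 CPM with DAC+SFN (log2FC 0.99 ± 0.16, adjusted p = 0.000894). The groups did not overlap for any of the 3. Gsr, which reduces oxidized glutathione, changed by 0.43 ± 0.06 (adjusted p = 0.000582).

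Part of the thioredoxin arm and of the NADPH suppliers rose with them. Srxn1, which restores overoxidized peroxiredoxins, had 139.5, 156 and 136 CPM with DAC and 381, 487 and 252 CPM with DAC+SFN (log2FC 1.32 ± 0.13, adjusted p = 2.88e-05). Txnrd1, the thioredoxin reductase, rose by 0.72 ± 0.07 (adjusted p = 4.47e-05), while its substrate Txn1 did not pass the test at 0.07 ± 0.05 (adjusted p = 0.406). G6pdx, the first enzyme of the pentose phosphate pathway, stood at 169, 182 and 152 CPM with DAC and 331, 388 and 232 CPM with DAC+SFN (log2FC 0.89 ± 0.08, adjusted p = 2.88e-05). Taldo1 and Pgd of the same pathway rose by 0.67 ± 0.11 and 0.46 ± 0.10, whereas Tkt was at 0.01 ± 0.07 (adjusted p = 0.971). The pathway's genes therefore did not all move.

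Heme and iron genes of the list were divided in the same way. Blvrb, which reduces biliverdin to bilirubin, stood at 18.5, 9.89 and 17 CPM with DAC and 47.9, 55.5 and 31.5 CPM with DAC+SFN (log2FC 1.49 ± 0.21, adjusted p = 0.000436). Fth1, the ferritin heavy chain, rose by 0.69 ± 0.11 (adjusted p = 0.000694), and Ftl1, the light chain, was at 0.15 ± 0.08 (adjusted p = 0.196). Hmox1, the heme oxygenase that precedes Blvrb, had 172, 211 and 178 CPM with DAC and 247, 359 and 171 CPM with DAC+SFN and missed the threshold at an adjusted p of 0.0524. In replicate 3 Hmox1 was slightly lower with SFN, and in replicates 1 and 2 it was higher.

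The glutathione S-transferases did not move as 1 family. Of 20 tested, 6 rose and 4 fell, against 9.55% and 6.6% of all genes, with a median log2FC of 0.21. Without the block 1 rose and none fell. Besides Gsta3, Gstm1 rose (116, 74.8 and 101 CPM with DAC and 158, 138 and 144 CPM with DAC+SFN, log2FC 0.60 ± 0.08, adjusted p = 0.000282). Mgst3, a microsomal member, fell (8.24, 5.74 and 8.95 CPM with DAC and 4.1, 4.41 and 5.32 CPM with DAC+SFN, log2FC -0.73 ± 0.18, adjusted p = 0.0123). Gsto1 rose by 0.35 ± 0.08 (adjusted p = 0.0121) and its replicates overlapped between groups. Gsta1 and Gsta2 also passed as lower, at -0.51 ± 0.15 and -0.58 ± 0.16, but they are near-identical copies counted from unique reads only, so their split is uncertain. The 4 lower members were 0 in number without DAC replicate 1 or without DAC+SFN replicate 1, and 1 without replicate 2 of either group.

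Among 21 alcohol, aldehyde and carbonyl enzymes tested, 5 rose, against 9.55% of all genes, and 2 fell, a share near the 6.6% of all genes (median log2FC 0.09). Without the block none passed. Adh7, an alcohol dehydrogenase that also oxidizes retinol, stood at 15.2, 20.7 and 16.2 CPM with DAC and 47, 69.7 and 33.6 CPM with DAC+SFN (log2FC 1.48 ± 0.14, adjusted p = 2.88e-05). Aldh1a3, which makes retinoic acid from retinaldehyde, had 7.66, 11.9 and 7.57 CPM with DAC and 20.3, 24.8 and 13.9 CPM with DAC+SFN (log2FC 1.11 ± 0.12, adjusted p = 7.22e-05). In both genes, and in Aldh3a1, the groups were apart. Aldh9a1 and Aldh18a1, of carnitine and proline synthesis, were lower at -0.42 ± 0.07 and -0.45 ± 0.07 (adjusted p = 0.00115 and 0.0012), and the broadly expressed Aldh2 was at 0.11 ± 0.09 (adjusted p = 0.467). Gains in this family were thus held by Adh7, Aldh1a3, Aldh3a1, Aldh4a1 and Akr1b10.

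**Figure D2:**
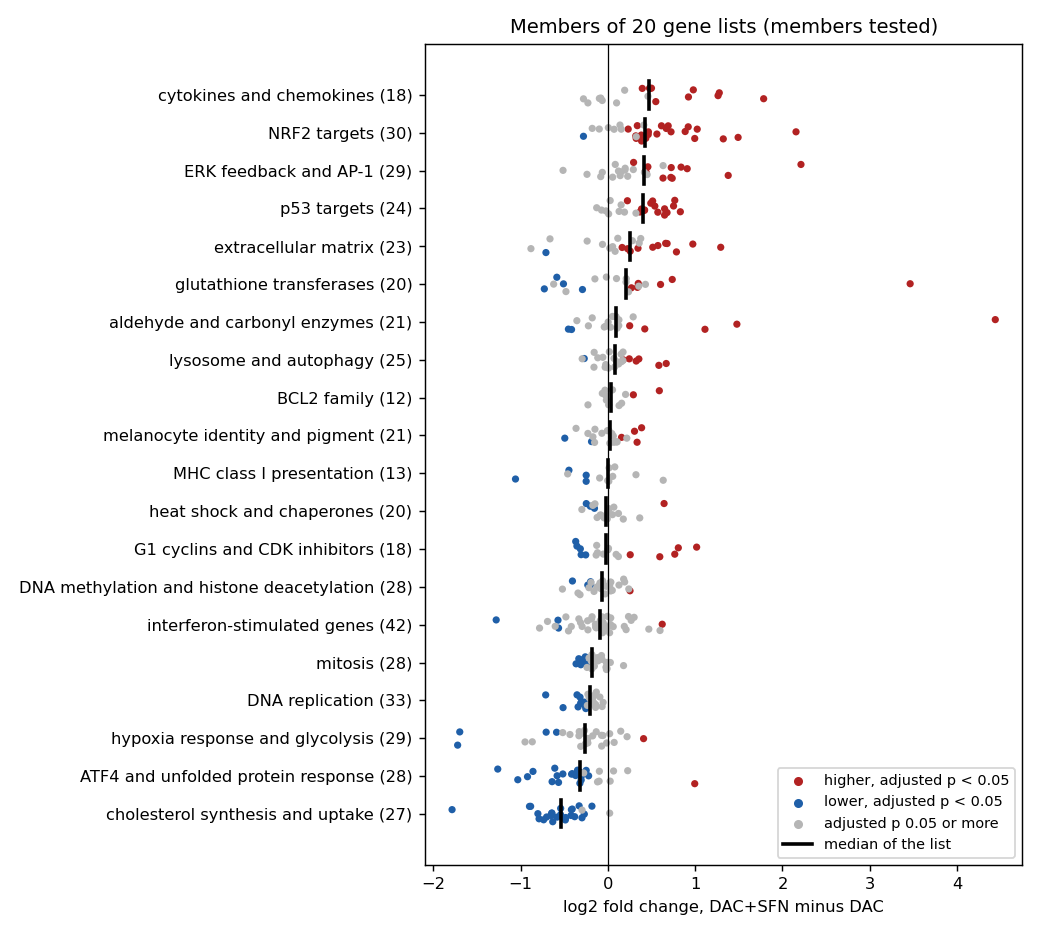
Each point is a gene of 1 of 20 lists, with its log2 fold change of DAC+SFN against DAC on the horizontal axis, the number tested in brackets and the list's median as a black bar. Red and blue points passed an adjusted p of 0.05 as higher or lower, and the medians run from -0.54 (cholesterol synthesis and uptake) to 0.47 (cytokines and chemokines).

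Nearly all cholesterol synthesis and uptake genes fell. Of 27 genes tested, 25 fell and none rose, against 6.6% of all genes that were lower, and the median log2FC was -0.54. The median was lower in each pair, at -0.73, -0.64 and -0.41. Only Tm7sf2 (adjusted p = 0.132) and Hsd17b7 (adjusted p = 0.871) did not pass. The number that fell was 21 to 24 when any 1 of the 6 samples was left out and 16 without replicate 1, but 0 without the block. Replicate 2 had the lowest DAC value of Fdps, Lss and Pmvk.

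Fdps, which makes farnesyl pyrophosphate, was at 534, 337 and 471 CPM with DAC and 229, 188 and 301 CPM with DAC+SFN (log2FC -0.90 ± 0.10, adjusted p = 0.000102). All DAC+SFN samples were below all DAC samples, and the fall within each pair was larger than the gap between the groups. Lss, which closes the sterol ring, had 179.9, 118 and 166 CPM with DAC and 93, 67.6 and 105 CPM with DAC+SFN (log2FC -0.80 ± 0.08, adjusted p = 2.88e-05). Pmvk, of the mevalonate pathway, had 46.1, 27.8 and 43.4 CPM with DAC and 21.9, 17.8 and 23 CPM with DAC+SFN (log2FC -0.88 ± 0.09, adjusted p = 3.08e-05). Insig1, a sterol-sensing retention protein of the endoplasmic reticulum, was lower in every pair, with a log2FC of -0.74 ± 0.08 (adjusted p = 6.27e-05), with the groups overlapping.

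Srebf2, the transcription factor of the pathway, fell as well, with 242, 229.8 and 270.2 CPM with DAC and 197, 173 and 189.7 CPM with DAC+SFN (log2FC -0.41 ± 0.06, adjusted p = 0.000695) and the groups apart. The sterol regulatory element, searched as TCACNCCAC on both strands, was in 1 of 19 promoters of the list (5.26%) and in 1.39% of the promoters of tested genes.

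Most ATF4 and unfolded protein response genes fell with SFN, while Slc7a11 rose. Of 28 tested, 20 fell and 1 rose, against 6.6% and 9.55% of all genes (median log2FC -0.32, and -0.39, -0.32 and -0.34 in the 3 pairs). Trib3, a pseudokinase that ATF4 and CHOP switch on, had the smallest adjusted p among all lower genes: its values were 82.6, 57.2 and 75.8 CPM with DAC and 37, 29.98 and 37.9 CPM with DAC+SFN (log2FC -1.03 ± 0.06, adjusted p = 6.17e-07). The 3 pairs differed little, and its adjusted p was under 0.05 in every alternative fit. Atf4 itself stood at 551, 447 and 481 CPM with DAC and 382, 295 and 360.1 CPM with DAC+SFN (log2FC -0.52 ± 0.06, adjusted p = 7.11e-05). Ddit3, which encodes CHOP, did not pass at -0.10 ± 0.08 (adjusted p = 0.426), nor did Atf3 at 0.23 ± 0.12 (adjusted p = 0.214).

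Serine and asparagine synthesis made up part of the fall. Asns, the asparagine synthetase, had 340.1, 272 and 292 CPM with DAC and 217, 166 and 210.2 CPM with DAC+SFN (log2FC -0.61 ± 0.06, adjusted p = 4.65e-05). Phgdh, Psat1 and Shmt2 of the serine and one-carbon pathway were at -0.56 ± 0.06, -0.42 ± 0.06 and -0.58 ± 0.06, each with groups apart. Pck2, the mitochondrial PEP carboxykinase and among the 6 lower genes with the smallest adjusted p, stood at 109.8, 68.3 and 97.4 CPM with DAC and 58.7, 38.7 and 63.3 CPM with DAC+SFN (log2FC -0.78 ± 0.07, adjusted p = 2.88e-05).

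Some members of the ATF4 list tied to protein folding and degradation at the endoplasmic reticulum also fell. Herpud1, which takes part in degradation from that organelle, had 149, 143 and 135 CPM with DAC and 97.1, 91.5 and 85.4 CPM with DAC+SFN (log2FC -0.64 ± 0.06, adjusted p = 3.08e-05). Hspa5, the main chaperone of that organelle, fell by 0.35 on the log2 scale (adjusted p = 0.0037), and Xbp1 by 0.41 (adjusted p = 0.002). Without the block 4 list members were past the threshold as lower, and without replicate 1 the count was 11.

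The CARE motif, the composite site that ATF4 binds, was searched as TTGCATCA on both strands. It was found in 6 of 26 promoters of the list (23.1%) and in 0.703% of the promoters of tested genes. The lines below show 5 of them, because a gene that rose and genes that fell hold the same 8 letters, in capitals.
Slc7a11 (chr3:50443638-50443675, reverse strand): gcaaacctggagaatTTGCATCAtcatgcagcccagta
Chac1 (chr2:119351034-119351071, forward strand): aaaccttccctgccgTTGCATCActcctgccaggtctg
Vldlr (chr19:27216805-27216842, forward strand): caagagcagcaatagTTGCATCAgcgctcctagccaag
Nupr1 (chr7:126625558-126625595, reverse strand): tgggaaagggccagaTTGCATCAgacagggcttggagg
Herpud1 (chr8:94386302-94386339, forward strand): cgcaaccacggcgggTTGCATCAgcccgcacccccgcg
Slc7a11 was 0.99 on the log2 scale with a match 47 to 40 bases before the start of its promoter entry. Chac1, a glutathione-degrading enzyme, was -0.86, Nupr1 -0.92 and Herpud1 -0.64. Vldlr, the very low density lipoprotein receptor, had 7.62, 5.55 and 7.01 CPM with DAC and 3.05, 1.53 and 3.97 CPM with DAC+SFN (log2FC -1.26 ± 0.19, adjusted p = 0.000573), with the groups apart. Its printed stretch lies inside the gene, which begins at 27216480. Slc7a11 belongs to the NRF2 list as well, and what set its direction was not tested.

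The plot of 12 genes in each sample shows both arms side by side, with the offset of replicate 2 in several of them.

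**Figure D3:**
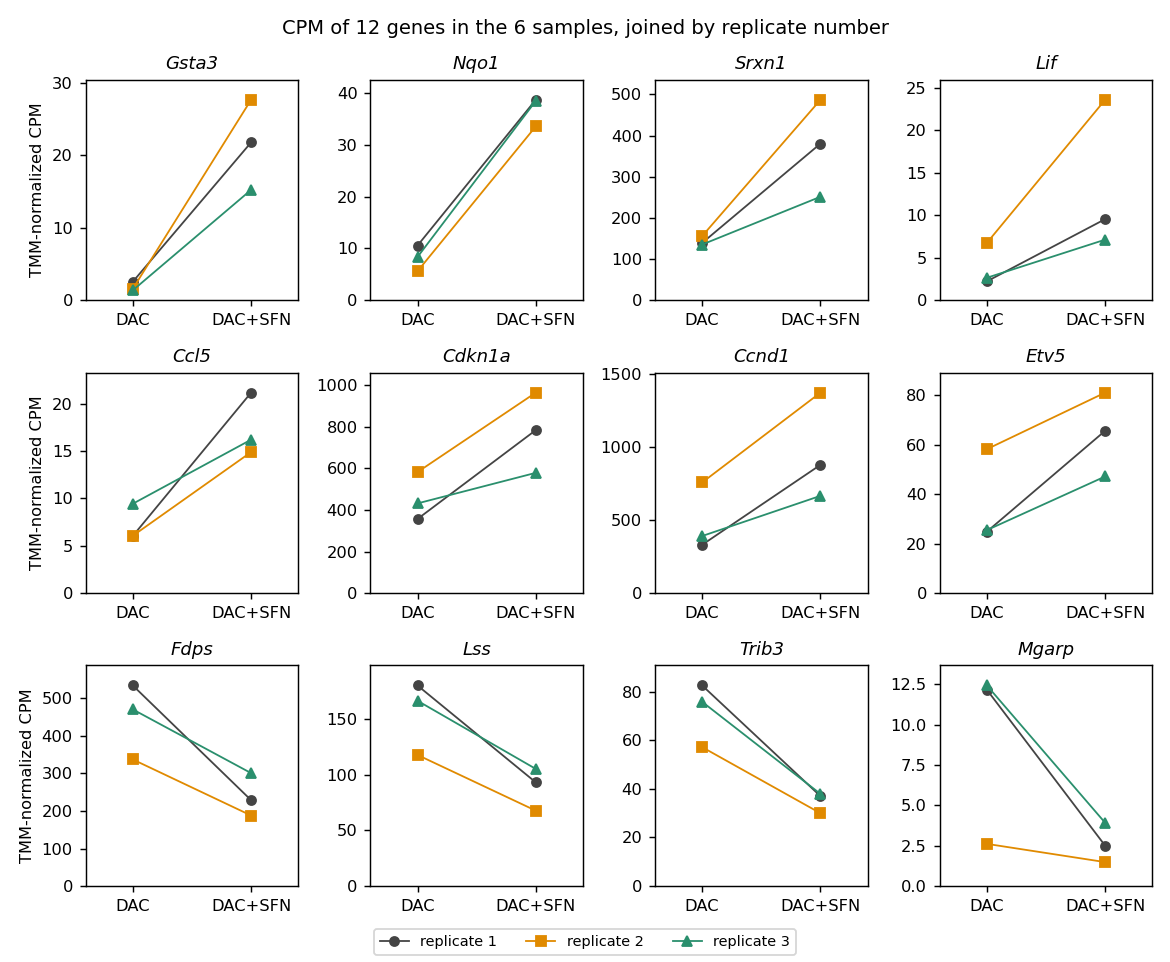
Panels give TMM-normalized CPM of 12 genes on linear axes from 0, with the DAC sample and the DAC+SFN sample of a replicate number joined by a line. All lines of the first 8 genes rise and those of the last 4 fall, while the replicates start from different levels (Lif 2.24, 6.76 and 2.66 CPM with DAC).

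Most p53 target genes tested rose, none by over 2-fold. Of 24 tested, 15 rose and none fell, against 9.55% and 6.6% of all genes (median log2FC 0.40). Cdkn1a, which encodes the CDK inhibitor p21, had 357, 582 and 432 CPM with DAC and 784, 964 and 579 CPM with DAC+SFN (log2FC 0.77 ± 0.11, adjusted p = 0.000459), with overlap because DAC replicate 2 started high. Mdm2, the ubiquitin ligase of p53, had 171, 264 and 174 CPM with DAC and 305, 416 and 253 CPM with DAC+SFN (log2FC 0.68 ± 0.07, adjusted p = 4.47e-05). Ccng1 and Plk2 had groups apart, at 0.54 ± 0.07 and 0.65 ± 0.08 (adjusted p = 0.000233 and 0.00014). The death receptor Tnfrsf10b rose by 0.65 ± 0.08 (adjusted p = 0.000106), while the apoptosis genes Bax and Bbc3 were at 0.13 ± 0.08 and 0.01 ± 0.23 (adjusted p = 0.306 and 0.985). Without replicate 1 the count of higher members was 7, and without the block it was 0.

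In the cell cycle, D-type cyclins rose and part of the S-phase and mitotic genes fell. Of 18 G1 regulators, 5 rose and 5 fell, against 9.55% and 6.6% of all genes, and without the block none passed. Ccnd1, cyclin D1, had 332, 759 and 392 CPM with DAC and 879.8, 1375 and 667 CPM with DAC+SFN (log2FC 1.02 ± 0.10, adjusted p = 3.57e-05), with DAC replicate 2 inside the DAC+SFN range. Ccnd2 had 957, 1165 and 919.6 CPM with DAC and 1599, 1649 and 1333 CPM with DAC+SFN (log2FC 0.59 ± 0.07, adjusted p = 9.62e-05), with the groups apart. Cdk6, the partner kinase, rose by 0.81 ± 0.15 and Ccnd3 by 0.26 ± 0.08, whereas the inhibitor Cdkn1b was at -0.35 ± 0.07 (adjusted p = 0.00265) and Cdk2 at -0.31 ± 0.06. The 5 lower members numbered 3 without any 1 DAC sample, 2 without DAC+SFN replicate 1 and 0 without all of replicate 1.

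Of 33 DNA replication genes, 13 fell, against 6.6% of all genes, and none rose, and all 33 had a log2FC below 0 (median -0.21). Gins1, of the replicative helicase, was lower in every DAC+SFN sample than in any DAC sample (log2FC -0.71 ± 0.15, adjusted p = 0.00587). Rfc4, of the clamp loader, was at -0.51 ± 0.10 and Cdc45, another helicase component, at -0.35 ± 0.07 (adjusted p = 0.00482 and 0.00448). Of 28 mitosis genes, 9 fell, again against 6.6%, and none rose (median -0.18), led by Cenpa, the centromeric histone, at -0.36 ± 0.06 (adjusted p = 0.00163), and Aurkb, the Aurora B kinase, at -0.31 ± 0.06 (adjusted p = 0.00502).

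Those counts rested on replicates 1 and 2. The median difference of the replication list was -0.26, -0.31 and -0.05 in the 3 pairs, and that of the mitosis list was -0.34, -0.25 and 0.07, so replicate 3 did not show the mitotic fall. Lower replication genes numbered 8, 5 and 16 without DAC replicates 1, 2 and 3 and 5, 7 and 20 without DAC+SFN replicates 1, 2 and 3. For mitosis the corresponding numbers were 4, 3 and 14, and 2, 3 and 16. Without the block none passed in either list.

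Cytokine genes were few but mostly higher. Of 40 listed, 18 were expressed enough to be tested, 10 rose, against 9.55% of all genes, and none fell (median log2FC 0.47). Lif (chromosome 11, 4257568 to 4272514), a cytokine of the IL-6 family, stood at 2.24, 6.76 and 2.66 CPM with DAC and 9.56, 23.6 and 7.14 CPM with DAC+SFN (log2FC 1.78 ± 0.16, 3.44-fold, adjusted p = 2.88e-05). Each DAC+SFN value was above each DAC value, and replicate 2 was highest in both groups. Ccl5, which encodes the T cell chemokine RANTES, had 6.04, 6.06 and 9.44 CPM with DAC and 21.2, 14.9 and 16.2 CPM with DAC+SFN (log2FC 1.28 ± 0.19, adjusted p = 0.000553). Il33, an alarmin of the IL-1 family, had 4.97, 10.5 and 4.35 CPM with DAC and 11.6, 18.7 and 8.17 CPM with DAC+SFN (log2FC 0.98 ± 0.16, adjusted p = 0.001), with DAC replicate 2 inside the DAC+SFN range. Ccl5 and Il33 are 2 of the 3 genes here that the study followed by RT-PCR, so neither is an unselected example.

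Clcf1, another IL-6 family ligand, rose from 0.787, 1.34 and 1.01 CPM to 2.41, 3.35 and 1.63 CPM (adjusted p = 0.037), and Cxcl10, an interferon-inducible chemokine, changed by 0.39 ± 0.12 (adjusted p = 0.0408). Vegfa was at -0.23 ± 0.15 (adjusted p = 0.334). The count of 10 fell to 6 without DAC replicate 1 or 2 or without DAC+SFN replicate 1 or 2, to 3 without all of replicate 1, and to 0 without the block.

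Genes that respond to ERK signalling rose in part. Of 29 tested, 13 rose, against 9.55% of all genes, and none fell (median log2FC 0.42). Dusp15, a dual specificity phosphatase and the third gene followed by RT-PCR, had 0.207, 0.191 and 0.45 CPM with DAC and 1.41, 1.34 and 1.21 CPM with DAC+SFN (log2FC 2.21 ± 0.50, adjusted p = 0.0086), a low level even with SFN. The PEA3 family transcription factors Etv4, Etv5 and Etv1 were at 1.38 ± 0.27, 0.91 ± 0.13 and 0.74 ± 0.12 (adjusted p = 0.00411, 0.00045 and 0.00148). Spry4, an inhibitor of receptor tyrosine kinase signalling, had 9.69, 15.6 and 7.72 CPM with DAC and 18.3, 22.1 and 13 CPM with DAC+SFN (log2FC 0.72 ± 0.14, adjusted p = 0.00344). Immediate early genes were more scattered: Fos was at 0.84 ± 0.25 (adjusted p = 0.0366) and Egr1 at 0.63 ± 0.35 (adjusted p = 0.235).

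In this list too the pairs were unequal, with medians of 0.68, 0.44 and 0.08. The number that rose was 6 without DAC replicate 1 or without DAC+SFN replicate 1, 7 without DAC replicate 2, 18 without DAC+SFN replicate 3, and 1 without all samples of replicate 1. Without the block it was 0.

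Matrix genes rose in part. Of 23 tested, 11 rose, against 9.55% of all genes, and 1 fell, against 6.6% (median log2FC 0.26). Sparc, a secreted calcium-binding glycoprotein, had 1207, 2365 and 1473 CPM with DAC and 2199, 3786 and 2053 CPM with DAC+SFN (log2FC 0.68 ± 0.09, adjusted p = 0.000263). Thbs1 and Lama5 rose by 0.79 ± 0.15 and 0.51 ± 0.12 (adjusted p = 0.0032 and 0.0107). The count was 5 without DAC replicate 2, 6 without replicate 1 of either group, 3 without all of replicate 2, 1 without all of replicate 1 and 0 without the block.

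Of 25 lysosome and autophagy genes tested, 6 rose, against 9.55% of all genes, and 1 fell, a share below the 6.6% of all genes (median log2FC 0.08). Ctsd, the protease cathepsin D, had 1879, 2002 and 1788 CPM with DAC and 3366, 3323 and 2404 CPM with DAC+SFN (log2FC 0.67 ± 0.07, adjusted p = 5.74e-05). Ctsb, cathepsin B, rose by 0.58 ± 0.06 (adjusted p = 3.63e-05) and Hexa, a hexosaminidase subunit, by 0.36 ± 0.06 (adjusted p = 0.00147). Lipa, the lysosomal acid lipase that frees cholesterol from its esters, was not in the list but was among the 6 higher genes with the smallest adjusted p, at 233, 268 and 208 CPM with DAC and 399, 407 and 329 CPM with DAC+SFN (log2FC 0.68 ± 0.06, adjusted p = 1.73e-05). The count of 6 was 3 without DAC replicate 1, DAC replicate 2 or DAC+SFN replicate 1, and 0 without the block.

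**Figure D4:**
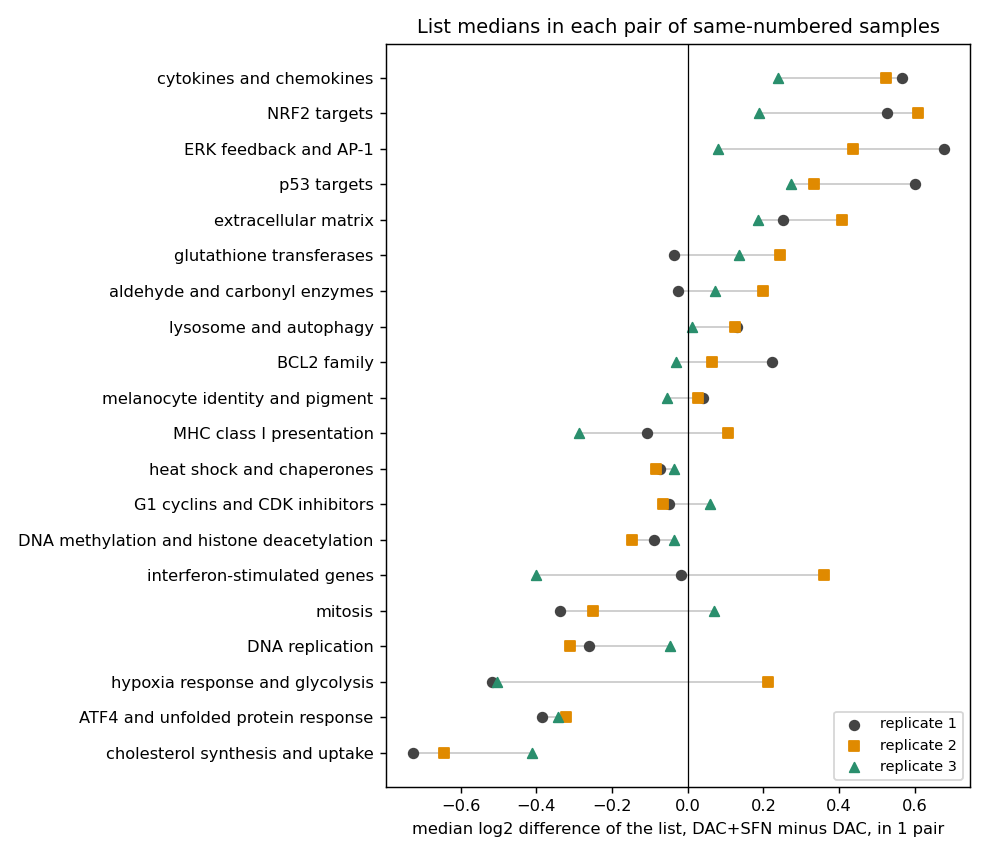
For each of the 20 lists, the 3 symbols give the median over members of the log2 difference between the DAC+SFN and the DAC sample of 1 replicate number (circle, square and triangle for replicates 1, 2 and 3). The ATF4 medians lie within -0.39 to -0.32, whereas the hypoxia medians are -0.52, 0.21 and -0.50.

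The hypoxia and glycolysis genes depended on the replicate. Of 29 tested, 4 fell, against 6.6% of all genes, and 1 rose, a share below the 9.55% of all genes (median log2FC -0.26), with pair medians of -0.52, 0.21 and -0.50. Mgarp, a hypoxia-inducible mitochondrial protein, had 12.2, 2.62 and 12.4 CPM with DAC and 2.5, 1.48 and 3.92 CPM with DAC+SFN (log2FC -1.72 ± 0.23, adjusted p = 0.000271). Ankrd37 had 3.27, 0.574 and 4.83 CPM with DAC and 0.774, 0.766 and 0.981 CPM with DAC+SFN (log2FC -1.70 ± 0.39, adjusted p = 0.0102). In both, DAC replicate 2 already stood near the DAC+SFN level. Slc16a3, the lactate exporter MCT4, shows the same: its values were 113, 28.3 and 134 CPM with DAC and 34.2, 35.5 and 48 CPM with DAC+SFN, and it did not pass (adjusted p = 0.0617).

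The number of lower hypoxia genes was 17 without DAC+SFN replicate 2, 19 without all of replicate 2, and 2 without DAC+SFN replicate 1. Ndrg1, a stress-responsive gene of the list, fell in every pair (75.1, 42 and 61.3 CPM with DAC and 41.8, 31.8 and 43.2 CPM with DAC+SFN, log2FC -0.59 ± 0.08, adjusted p = 0.000331). DAC replicate 2 was also the library with the fewest counts of the 6. Control replicate 2 was low as well, although it had the most counts of the control libraries (23654567). In control, Mgarp had 11.4, 2.24 and 14.3 CPM and Ankrd37 had 3.91, 0.817 and 4.98 CPM. The part of depth in the hypoxia values was not tested.

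Interferon-stimulated genes did not move as a group. Of 42 tested, 1 rose and 3 fell (median log2FC -0.09), which is below the 9.55% and near the 6.6% of all genes, and the pair medians were -0.02, 0.36 and -0.40. Oas2, which makes 2'-5' oligoadenylate on sensing double-stranded RNA, had 1.86, 0.191 and 8.8 CPM with DAC and 1.09, 0.144 and 2.85 CPM with DAC+SFN (log2FC -1.28 ± 0.31, adjusted p = 0.0135). The DAC values alone spanned from 0.191 to 8.80 CPM, more than the difference between groups. Ifit1, a binder of foreign RNA, was at 0.62 ± 0.20 in the opposite direction (adjusted p = 0.0428), and Isg15 was at -0.09 ± 0.23 (adjusted p = 0.845). The 3 that fell became 0 without DAC replicate 3 or DAC+SFN replicate 1 or 3, and 5 without replicate 2 of either group.

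For MHC class I presentation, 4 of 13 genes fell, against 6.6% of all genes, and none rose. H2-K1, a class I heavy chain, had 46.6, 14.5 and 58.1 CPM with DAC and 14.1, 13 and 25.4 CPM with DAC+SFN (log2FC -1.06 ± 0.24, adjusted p = 0.00912), with DAC replicate 2 inside the DAC+SFN range. H2-D1 had 32.4, 32 and 39.7 CPM with DAC and 24.7, 21.9 and 29.8 CPM with DAC+SFN (log2FC -0.45 ± 0.09, adjusted p = 0.00603) with groups apart. The class I genes are close copies of each other and only unique reads were counted, so the share between them is uncertain. B2m, the common light chain, was at -0.25 ± 0.08 (adjusted p = 0.0481), and the transporter gene Tap1 at 0.32 ± 0.18 (adjusted p = 0.243). Without DAC+SFN replicate 1 a single gene fell, and without the block none did.

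Of 21 pigment genes tested, 4 rose, against 9.55% of all genes, and 2 fell, a share near the 6.6% of all genes, and all lay between -0.49 and 0.39 on the log2 scale. Mlph and Myo5a, both needed to move melanosomes, rose by 0.39 ± 0.08 and 0.33 ± 0.06 (adjusted p = 0.00471 and 0.0017), and Mc1r, the melanocortin receptor, by 0.31 ± 0.07 (adjusted p = 0.00937). Trpm1, a cation channel of melanocytes, had 207, 87 and 137 CPM with DAC and 151, 53.9 and 107 CPM with DAC+SFN (log2FC -0.49 ± 0.12, adjusted p = 0.0122), a fall in every pair. Mitf and Sox10, the lineage factors, were at 0.06 ± 0.06 and 0.11 ± 0.09 (adjusted p = 0.487 and 0.445). The 4 that rose were 2 without DAC replicate 1 or 2 or DAC+SFN replicate 1, the 2 that fell were 0 without DAC replicate 2 or DAC+SFN replicate 1, and no member passed without all of replicate 1.

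Among markers of other cell types, Cd68, a lysosomal membrane protein used as a macrophage marker, rose from 3.93, 5.68 and 5.36 CPM to 9.61, 11.2 and 8.27 CPM (log2FC 0.94 ± 0.16, adjusted p = 0.0017). Lyz2 was at 0.73 ± 0.32 (adjusted p = 0.136), and the other 5 immune markers had at most 3 counts in any of the 6 libraries. Of 6 fibroblast markers Pdgfrb and Pdgfra were tested, at -0.13 ± 0.13 and -0.24 ± 0.24 (adjusted p = 0.528 and 0.55). Cdh1, the only keratinocyte marker tested, was at -0.44 ± 0.33 (adjusted p = 0.392).

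The genes of DNA methylation, whose enzymes DAC traps, and of histone deacetylation gave few calls. Of 28 tested, 1 rose and 4 fell, against 9.55% and 6.6% of all genes (median log2FC -0.07). Uhrf1, which guides DNMT1 to newly made DNA, had 376, 467 and 388 CPM with DAC and 321, 352 and 372 CPM with DAC+SFN (log2FC -0.23 ± 0.07, adjusted p = 0.0316), and Dnmt1 itself was at -0.06 ± 0.05 (adjusted p = 0.504). Mbd4, a glycosylase for mismatches at CpG sites, and Tet3, a methylcytosine dioxygenase, were at -0.41 ± 0.11 and -0.20 ± 0.06 (adjusted p = 0.0222 and 0.0339). Ezh1, a Polycomb methyltransferase, rose by 0.25 ± 0.07 (adjusted p = 0.0189). The lower genes numbered 0 without replicate 1 or 2 of either group, 8 without DAC replicate 3 and 9 without DAC+SFN replicate 3.

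The heat shock genes did not rise as a group. Of 20 tested, 1 rose, a share below the 9.55% of all genes, and 3 fell, against 6.6% (median log2FC -0.03). Cryab, a small heat shock protein, had 320.4, 527 and 319.7 CPM with DAC and 555, 905 and 408 CPM with DAC+SFN (log2FC 0.64 ± 0.08, adjusted p = 0.000115), while Fkbp4, an HSP90 co-chaperone, was lower at -0.25 ± 0.06 (adjusted p = 0.0135). In the BCL2 family, 2 of 12 rose, against 9.55% of all genes, and none fell. Both are anti-apoptotic: Bcl2l1, which encodes BCL-XL, had 65.1, 105 and 71.1 CPM with DAC and 121, 159 and 85.1 CPM with DAC+SFN (log2FC 0.59 ± 0.10, adjusted p = 0.00142), and Bcl2 was at 0.29 ± 0.08 (adjusted p = 0.029). A single member rose without any 1 DAC sample or without DAC+SFN replicate 1. The members Bcl2l2 and Bid were at 0.20 ± 0.09 and 0.16 ± 0.07 (adjusted p = 0.132 and 0.15).

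Some of the genes named by size or adjusted p were in no list. Bcan, the brain proteoglycan brevican, had 5.34, 4.59 and 5.39 CPM with DAC and 27, 15.9 and 14.5 CPM with DAC+SFN (log2FC 1.87 ± 0.15, adjusted p = 1.1e-05). Apod, the lipid carrier apolipoprotein D, had 1.41, 2.68 and 2.02 CPM with DAC and 9.51, 9.77 and 5.28 CPM with DAC+SFN (log2FC 1.99 ± 0.23, adjusted p = 0.000106). Tnnt2, cardiac troponin T, had 1.08, 1.08 and 1.35 CPM with DAC and 5.64, 9.05 and 3.5 CPM with DAC+SFN (log2FC 2.25 ± 0.28, adjusted p = 0.000177). In these 3 genes the groups were well apart and the call held without the block.

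Hspb7, a small heat shock protein of muscle, varied more between replicates, with 6.58, 6.95 and 23.2 CPM with DAC and 45.4, 23.7 and 59.96 CPM with DAC+SFN (log2FC 1.96 ± 0.21, adjusted p = 5.78e-05). Lims2, a focal adhesion adaptor, was at 1.80 ± 0.28 (adjusted p = 0.000798). Tmprss9, Dnah10 and 9530053A07Rik rose from means under 1 CPM with DAC, at 2.11 ± 0.35, 2.08 ± 0.35 and 2.15 ± 0.44, and 22 of the 108 genes had such low DAC means, so their folds rest on few reads.

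The largest fall was in Cck (chromosome 9, 121489824 to 121495694), which encodes the neuropeptide cholecystokinin. The DAC libraries held 31, 9 and 68 reads and the DAC+SFN libraries 2, 2 and 6, a ratio of 10.4 with an exact 95% counting interval of 5.46 to 22.4 (adjusted p = 0.000157). Col14a1, a fibril-associated collagen, had 2.07, 0.766 and 1.09 CPM with DAC and 0.228, 0.431 and 0.374 CPM with DAC+SFN (log2FC -1.88 ± 0.48, adjusted p = 0.0163). Abca12, a lipid transporter of the epidermis, had 99.7, 40.3 and 70.3 CPM with DAC and 52.6, 11.6 and 33.8 CPM with DAC+SFN (log2FC -1.20 ± 0.12, adjusted p = 3.57e-05), where every pair fell although the groups overlapped.

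In some other genes that fell more than 2-fold the DAC samples differed widely. Selenbp1, the selenium-binding protein, had 30.2, 8.61 and 37.8 CPM with DAC and 7.51, 8.14 and 13 CPM with DAC+SFN (log2FC -1.29 ± 0.28, adjusted p = 0.00735). H19, an imprinted long noncoding RNA, had 1.49, 0.191 and 8.95 CPM with DAC and 0.228, 0.144 and 3.92 CPM with DAC+SFN (log2FC -1.41 ± 0.31, adjusted p = 0.00735). Sgk2 and Atp7b, a kinase and a copper transporter, were at -1.36 ± 0.32 and -1.25 ± 0.37 (adjusted p = 0.0108 and 0.0328). In all 4 genes the 2 groups overlapped, whereas in Fndc4 and Slc2a4, chosen after their values were seen, they were apart (log2FC -1.20 ± 0.28 and -1.14 ± 0.25, adjusted p = 0.00989 and 0.00669).

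Finally, the change with SFN in DAC-treated cells was set beside the change with SFN in cells without DAC. The 2 changes share no sample. SFN alone against control gave 149 genes past the same thresholds (1.28%). All 108 genes had the same direction there, 89 also had an adjusted p under 0.05, and 82 passed both thresholds, which is 75.9% of the 108 and 55.0% of the 149. Over all 11638 genes the 2 changes were correlated too (Pearson 0.788, Spearman 0.686), so the likeness was not limited to the 108. The share of all genes with the same direction is not given here. The labels give the single SFN treatment in nM and the combined one in µM, whereas the methods of the study give its SFN dose in µM and take the single treatments through the steps of the combination.

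**Figure D5:**
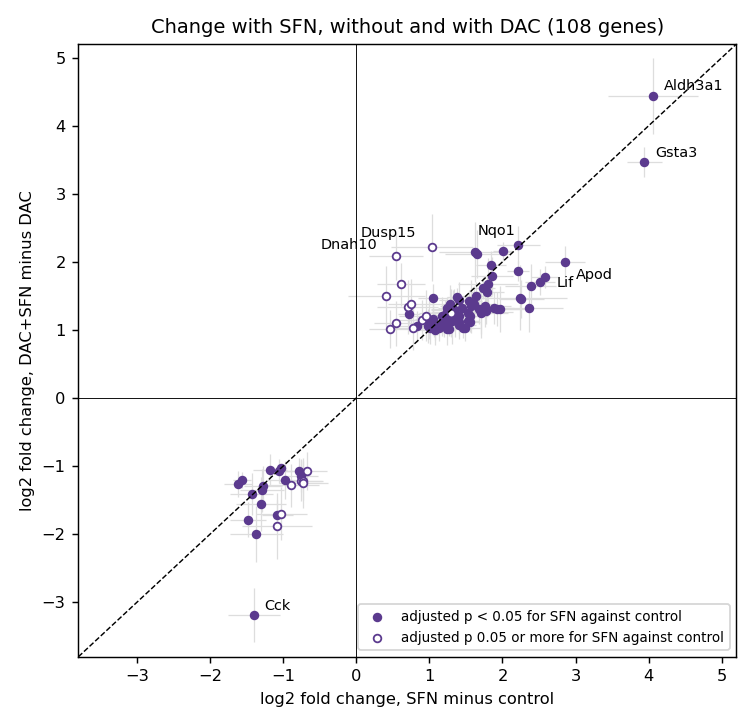
For the 108 genes, the log2 fold change of SFN against control is on the horizontal axis and that of DAC+SFN against DAC on the vertical axis, with standard errors in grey and a dashed line of equal change. Filled points had an adjusted p under 0.05 for SFN against control (89 genes), and all points lie at lower left or upper right.

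The difference between the 2 changes was tested for every gene. None passed (0%), the smallest adjusted p was 0.748, and 683 of the 11638 genes had an unadjusted p under 0.05, 10 of them among the 108. DESeq2's Wald test also called 0 genes, with 505 at an unadjusted p under 0.05. Lif was the nearest of the 108. Its values were 0.782, 2.32 and 1.18 CPM in control and 4.75, 15 and 6.17 CPM with SFN, a log2FC of 2.59 ± 0.19. The difference for Lif was -0.80 ± 0.26 (unadjusted p = 0.00758, adjusted p = 0.847). For Cck, SFN alone gave -1.40 ± 0.35, and the difference was -1.79 ± 0.58 (adjusted p = 0.847). For Dnah10, SFN alone gave 0.55 ± 0.37 and the difference was 1.54 ± 0.53 (adjusted p = 0.847). These 3 were named because their unadjusted p was smallest among the 108.

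For the leading genes the values without DAC were close to those with it. Gsta3 was 1.47, 1.16 and 0.822 CPM in control and 13.6, 27.4 and 13 CPM with SFN (log2FC 3.94 ± 0.24), a difference between the changes of -0.48 ± 0.36 (95% interval -1.25 to 0.29, adjusted p = 0.969). Nqo1 was 7.45, 8.78 and 9.04 CPM and 33.2, 33.5 and 35.2 CPM (log2FC 2.01 ± 0.14), a difference of 0.15 ± 0.20 (95% interval -0.27 to 0.56, adjusted p = 0.981). Trib3 changed by -1.03 ± 0.07 without DAC, and the difference was -0.01 ± 0.09 (95% interval -0.20 to 0.19, adjusted p = 1).

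The list medians with SFN alone were 0.47 for NRF2 targets, -0.64 for cholesterol synthesis, -0.27 for the ATF4 list, 0.45 for p53 targets, 0.41 for cytokines and 0.27 for ERK responses. The same medians with DAC present were 0.42, -0.54, -0.32, 0.40, 0.47 and 0.42. No member of any list passed the test of the difference.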

How the data were processed

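RNA of B16F10 cells was sequenced by the authors from 12 samples (control, DAC, SFN and DAC+SFN, 3 each). The deposited files hold raw read counts per gene, 1 file per sample with Entrez identifiers and symbols. Per the labels and methods, the authors used FastQC 0.11.7, Trimmomatic 0.38, TopHat2 2.1.1 on mm10 and HTSeq, keeping uniquely mapped reads, so near-identical genes can be undercounted. The gene annotation is not given in the sources used here.

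Counts were tested here with edgeR 4.0.16 in R 4.3.3: TMM normalization, a filter of 1 CPM or more in 3 or more libraries, the quasi-likelihood test (legacy fit), all 12 samples in a model of group plus replicate number, and Benjamini-Hochberg adjustment over the 11638 genes tested. Called genes had an adjusted p under 0.05 and a change of more than 2-fold. Standard errors were the log2FC divided by the root of the F statistic. CPM are TMM-normalized. P-values measure the spread left within groups of 3 samples, over all 12 samples, after the replicate number was fitted. Totals of 15880957 to 27291436 counts over the 12 libraries make 1 CPM equal to 15.9 to 27.3 reads.

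The replicate number was a block because same-numbered DAC and DAC+SFN samples deviated together (correlations of deviations from the group mean 0.276, 0.610 and 0.421). DAC replicate 1 correlated as closely with DAC+SFN replicate 3 (0.282), so these values do not single out the pairing of replicate 1. The other differently numbered samples were at -0.576 to -0.0656. Library numbers in the labels follow the replicate number, so a batch by library cannot be told apart from it. Replicates of a group differed by more than sampling noise.

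The comparison, gene lists and rules were chosen with earlier results of these data known. Genes named were, among called genes with the same direction in 3 pairs, the 12 largest rises and 10 largest falls. The 6 smallest adjusted p in each direction, for which no 2-fold change was needed, were added. So were up to 4 members per list by adjusted p plus called members, and Ccl5, Dusp15 and Il33. The last were the 3 smallest p for the difference of the SFN changes among called genes. Other list members, genes outside these rules and the printed promoter stretches were chosen after their values were seen. A few genes that these rules name are not reported here. Gene positions and promoters came from RefSeq (GRCm38.p6), with 11605 of 11638 tested genes matched by Entrez identifier. Scripts were tested on simulated data. Alternatives were another normalization, DESeq2 1.42.0, other fits, filters and thresholds, no block, the 6 samples alone, and samples or replicate numbers left out. Figures used matplotlib 3.10.9.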

Additional observations from a re-analysis of the deposited data

How the results depend on the processing

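The 108 genes (85 higher and 23 lower) became 57 (45 and 12) with a filter of 5 CPM, 9 (8 and 1) without the replicate block, 1879 (1111 and 768) without a fold threshold, 388 (273 and 115) at a fold above 1.5, and 6 (5 and 1) with glmTreat. Without the block 20 genes had an adjusted p under 0.05 and 1909 an unadjusted p under 0.05. With only the 6 samples compared and the block kept, 106 genes passed and 760 had an adjusted p under 0.05. Leaving out 1 of the 6 samples gave 61 to 167 genes, and leaving out a replicate number gave 37 to 179. Over these leave-outs the higher genes ranged from 30 to 142 and the lower genes from 7 to 43. With the DESeq2 Wald test 98 genes passed, 95 of them among the 108, with 3151 genes at an unadjusted p under 0.05. The difference between the changes with SFN gave 0 genes under all alternatives run for it. The list medians moved by less than 1 SD of the 3 pair medians except in leave-outs: the ranges were 0.0248 to 0.319 for glutathione transferases, -0.391 to -0.304 for the ATF4 list, -0.0926 to -0.00914 for heat shock and -0.0382 to 0.0601 for pigment genes. Of 101 named genes past the adjusted p, 10 passed under every alternative fit, 36 were lost only without the block, and 53 were lost without replicate 1, and no named gene changed direction. The leave-out results that follow cover only genes past 2-fold given here that the naming rules chose. Of these, Ankrd37, Col14a1, Dusp15, H2-K1, Oas2, Selenbp1 and Sgk2 lost their adjusted p without DAC+SFN replicate 1. Col14a1, Dusp15 and Sgk2 also lost it without DAC replicate 1, Ankrd37 without DAC replicate 3, and Oas2 without replicate 3 of either group. Atp7b and Clcf1 lost it without any 1 sample other than DAC+SFN replicate 3. Lower heat shock genes (3) ranged from 0 to 4 when 1 sample was left out. Member counts of the lists under each alternative were added after seeing the data. Genes near 1 CPM rest on 15.9 to 27.3 reads a library, which limits their precision, and the causes of these shifts were not tested.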

Other observations

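Some genes past both thresholds fell in no list and are given as values, chosen after their values were seen. Dysf, the membrane repair protein dysferlin, had 12.4, 15.9 and 25.1 CPM with DAC and 32.8, 39 and 36.8 CPM with DAC+SFN (log2FC 1.08 ± 0.18, adjusted p = 0.00126). Neb, the giant actin-binding protein nebulin, had 2.73, 4.4 and 3.07 CPM with DAC and 6.87, 9.63 and 6.21 CPM with DAC+SFN (log2FC 1.15 ± 0.22, adjusted p = 0.00344). Synm, the intermediate filament protein synemin, had 1.16, 1.34 and 1.16 CPM with DAC and 2.41, 3.16 and 2.01 CPM with DAC+SFN (log2FC 1.03 ± 0.23, adjusted p = 0.00843), and Fblim1, a filamin-binding adaptor, was at 1.18 ± 0.18 (adjusted p = 0.000761). In all 4 genes each DAC+SFN sample was above each DAC sample.

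Malat1, a nuclear long noncoding RNA, had 95.9, 103 and 143 CPM with DAC and 313, 211 and 264 CPM with DAC+SFN (log2FC 1.23 ± 0.15, adjusted p = 0.000139), and the difference from the change with SFN alone was 0.51 ± 0.21 (unadjusted p = 0.0277, adjusted p = 0.847). Ggt1, the gamma-glutamyltransferase that breaks down extracellular glutathione, had 15.7, 21.7 and 16.7 CPM with DAC and 47.2, 67.6 and 27.8 CPM with DAC+SFN (log2FC 1.33 ± 0.16, adjusted p = 0.000157). Trim16, a ubiquitin ligase, had 1.9, 2.17 and 2.58 CPM with DAC and 4.92, 10.3 and 5.42 CPM with DAC+SFN (log2FC 1.56 ± 0.22, adjusted p = 0.000436). Id1 and Hes1, transcriptional repressors downstream of BMP and Notch signalling, rose by 1.31 ± 0.22 and 1.05 ± 0.25 (adjusted p = 0.00142 and 0.0108). Slc2a4, the insulin-responsive glucose transporter GLUT4, was lower at 5.26, 3.32 and 4.31 CPM with DAC and 1.87, 1.05 and 2.99 CPM with DAC+SFN (log2FC -1.14 ± 0.25, adjusted p = 0.00669). Stc1, the glycoprotein hormone stanniocalcin 1, had 7.0, 1.02 and 9.93 CPM with DAC and 1.27, 1.2 and 1.59 CPM with DAC+SFN (log2FC -2.00 ± 0.40, adjusted p = 0.00468), with DAC replicate 2 below DAC+SFN replicates 1 to 3.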
